A study of Mus musculus with 6 samples.

Results

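Gata3, Foxp3, Ikzf2, Ikzf4, Rora, Ahr, Bcl6 and Ascl2 encode transcription factors that mark or specify Th2, regulatory (Treg), Th17 and follicular (Tfh) helper T cells. They were taken by gene symbol, and each of the 8 matched exactly 1 of the 13177 RefSeq accessions in a table of read counts from mouse CD4+ T cells, the helper lineage of T lymphocytes. The cells were purified by magnetic beads and were transfected with a synthetic miR-155 oligonucleotide, a version of a microRNA that activated lymphocytes induce, per the series' design text. The 8 h group held 3 libraries from cells collected 8 h after transfection, and the control group held 3 libraries labelled as 0 h. The treatment label of both groups names the oligonucleotide, and no sample at 8 h without it was analysed here, so time and exposure cannot be told apart. No strain, age, sex or genotype was given in the labels, and they are silent on whether the replicates were separate animals or cultures. P-values below therefore reflect the spread among these 6 libraries alone, and that spread may be technical.

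Naive CD4+ T cells become different kinds of helper cell according to the cytokines they meet, and a small set of transcription factors fixes each fate. GATA3 drives Th2 cells and the IL-4, IL-5 and IL-13 genes, and FOXP3 establishes suppressive Treg cells, many of which also carry the Ikaros-family zinc finger proteins Helios (Ikzf2) and Eos (Ikzf4). The orphan receptor RORA acts in mouse Th17 cells, where the ligand-activated factor AHR supports IL-22 production, while BCL6 is the repressor required for Tfh cells and ASCL2 induces the follicle-homing receptor CXCR5 in mouse T cells.

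MicroRNAs pair through their seed, bases 2 to 8 from the 5′ end, with sites in 3′ untranslated regions. The natural mature strand miR-155-5p is shown because it carries the seed in question, with the seed in capitals, and comes from RefSeq (GRCm38.p6, chr16:84714143-84714165, plus strand). The sequence of the synthetic oligonucleotide itself was not given in the labels.
mmu-miR-155-5p: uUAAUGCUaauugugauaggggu
A match to bases 2 to 8 reads AGCATTA in the transcript, and a match to bases 2 to 7 followed by A reads GCATTAA. The letters overlap, and a site holding both would count once. Only the transcript strand was searched, in the longest 3′ untranslated region of each gene in GENCODE release M21. Rora held 1 match, 552 bases into its region (position counted from 1 after the stop codon), and Ahr held 2, at 1420 and 1873. The windows are given with the match in capitals, because these are the places where the introduced seed could pair with a transcript of the set.
Rora, chr9:69379496-69379523, plus strand, GRCm38: atagcgctcgcaacaatAGCATTAtaat
Ahr, chr12:35499259-35499286, minus strand, GRCm38: ttgaagcttttacgttgGCATTAAgata
Ahr, chr12:35498806-35498833, minus strand, GRCm38: ctgtattcaagggtcacAGCATTAgaaa
All 3 sites lie in the transcripts paired with the deposited accessions. These letters were not found in the annotated regions of Gata3, Foxp3, Ikzf2, Ikzf4, Bcl6 and Ascl2. Over all rows with an annotated region, 1557 of 12572 genes, or 12.4%, held at least 1 match.

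Library totals ranged from 6243803 to 13675127 counts at 8 h and from 4564010 to 12303358 counts in controls, and values are given as counts and as CPM, counts scaled by TMM to a common library size. Actb, the cytoplasmic actin gene that T cells express abundantly, had 3 to 5 counts in the 8 h libraries and 1 to 4 in the controls, which leaves it uncertain that a row is an ordinary gene count and limits all values given here. Cd4, which defines the labelled cells, had 5 to 9 counts at 8 h and 6 to 10 in controls, whereas the receptor subunit Cd3e had 256 to 4428 counts at 8 h and 704 to 11475 in controls. Cd5 had 671, 542.5 and 4007 CPM in 8 h replicates 1 to 3 and 2659, 1771 and 275.5 CPM in controls 1 to 3, overlapping ranges in which 8 h replicate 3 was the highest library. Among other cell types, the CD8 T cell gene Cd8a had 0.704, 4.67 and 10.4 CPM at 8 h and 3.04, 5.57 and 1.73 CPM in controls. The myeloid gene Lyz2 had 1.76, 0.151 and 0.290 CPM at 8 h and 0.715, 0.398 and 12.6 CPM in controls, high in control 3 alone, and both genes overlapped between groups. Summed markers of natural killer cells, of mast cells and of erythroid cells did not overlap between the groups and were lower in every 8 h library, while those of T, CD8 T, B and myeloid cells overlapped. The natural killer sum was mostly Gzma and Gzmb, with Gzmb at 4535 CPM in control 1 and Gzma at 922 CPM in control 3. Of 8 tested natural killer markers, 3 had higher and 5 lower estimates at 8 h. Mast cell markers split into 1 higher and 2 lower, and erythroid markers into 1 and 5. Single markers lower at 8 h without overlap numbered 2 of 8, 1 of 3 and 1 of 6, where 5.08% of all tested genes did so. Among them, Klrb1c, Mcpt8 and Alas2 passed a filter on low counts only through the controls, where they were high. No matched marker was at 0 in all 6 libraries. The 8 h samples are described as CD5+ in one label and as CD4+ T cells in another. Across the 7774 tested genes with counts in every 8 h library, the highest library exceeded the lowest by a median of 10.4-fold, and across 7544 such genes in controls by 9.83-fold.

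Of the 8 factors, 5 had enough counts to be tested (Gata3, Foxp3, Ikzf4, Ahr and Ascl2) and 0 passed edgeR's quasi-likelihood test at an adjusted p of 0.05, a threshold that 0.00% of the 8308 tested genes passed. Ascl2 alone differed between the groups without overlap, with higher values in every 8 h library. It passed the filter on low counts only through those libraries, so its results are a description. At an unadjusted p under 0.05 edgeR gave 1 of the 5, Ascl2, where 8.53% of all tested genes reached that level, and as an alternative the Wald test of DESeq2 called 1 of the 5, again Ascl2, where it called 4.80% of tested genes. The same 5 factors split into 4 with higher and 1 with lower estimates at 8 h, against 4263 higher and 4045 lower among all tested genes. Their median log2 fold change was 0.98, beside 0.06 over all tested genes, whose quartiles were -1.26 and 1.32. Foxp3, like Ascl2, passed the filter only through the 8 h libraries, so this split and this median are a description. In libraries from whole cell preparations, a change in the number of cells of one kind and a change in RNA per cell cannot be told apart.

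**Figure D1:**
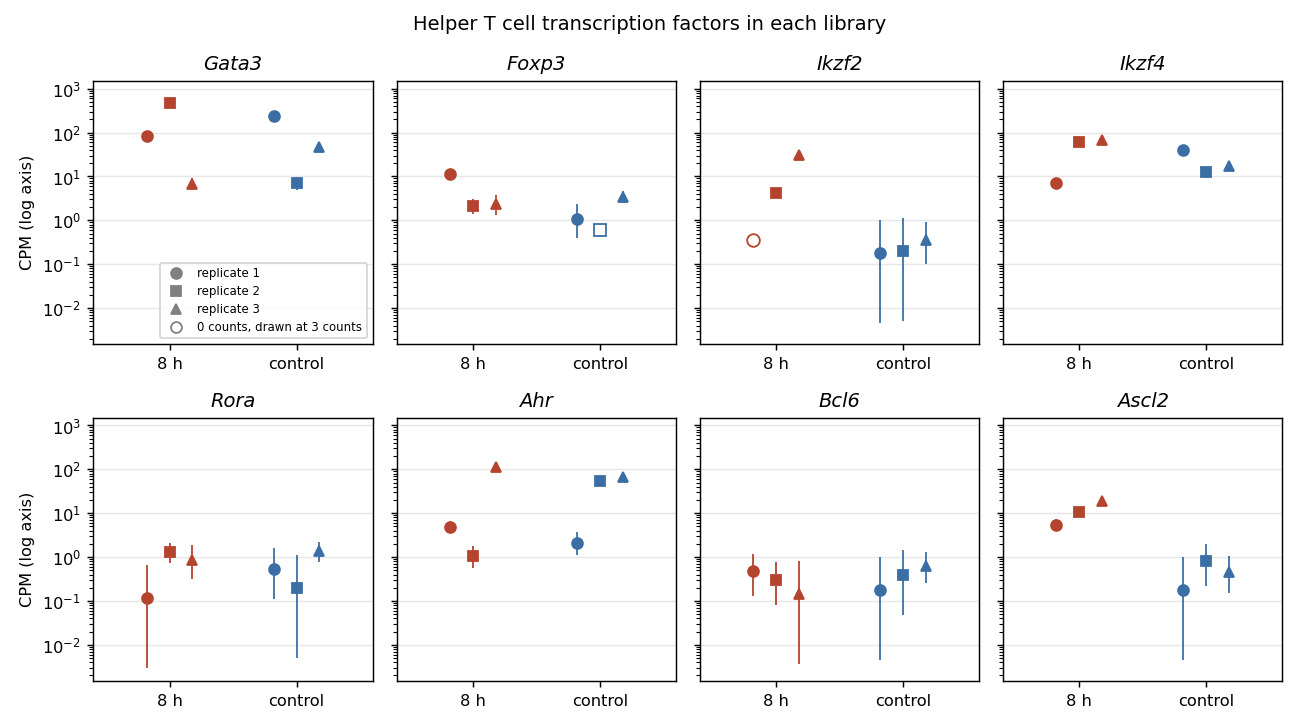
CPM on a log axis for each of the 8 factors, with 3 libraries at 8 h and 3 controls in each panel; symbols give the replicate number, bars the exact 95% counting interval, and an open symbol a library with 0 counts, drawn at the level of 3 counts. The 8 h libraries lie above all controls for Ascl2, at 5.40 to 19.4 CPM against 0.179 to 0.795 CPM, while the groups overlap for the other factors.

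Gata3 (NM_008091, chromosome 2, 9857078 to 9887953, GRCm38), the Th2 factor, ranged widely within both groups. It had 702, 6169 and 47 counts in 8 h replicates 1 to 3, or 82.4, 465 and 6.81 CPM, and 1354, 35 and 522 counts in controls 1 to 3, or 242, 6.96 and 47.6 CPM. The lowest libraries of the groups, 8 h replicate 3 and control 2, were nearly equal, and the highest, 8 h replicate 2 and control 1, stood far above them. Within the 8 h group the highest library exceeded the lowest by 68.2-fold, and within the controls by 34.8-fold. Means were 185 ± 245 CPM at 8 h and 98.9 ± 126 CPM in controls (SD, n = 3 each). This gave a log2 fold change of 0.90 with an SE of 1.88 (edgeR adjusted p = 0.926). Leaving out 8 h replicate 2 turned the estimate to -1.14, and leaving out control replicate 1 gave 2.76.

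Foxp3 (NM_001199347, chromosome X, 7579676 to 7595243), the lineage factor of Treg cells, was scarce. Its counts were 96, 28 and 16 at 8 h, or 11.3, 2.11 and 2.32 CPM, and 6, 0 and 38 in controls, or 1.07, 0 and 3.47 CPM. The 0 counts in control 2 allow up to 0.5965 CPM at 3 counts. Control 3 lay above 8 h replicates 2 and 3, so the groups overlapped, although 8 h replicate 1 stood above all other libraries. Means were 5.23 ± 5.23 CPM at 8 h and 1.51 CPM in controls, where the SD was 1.775 CPM (n = 3 each). The log2 fold change of 1.75, with an SE of 1.46, had an edgeR adjusted p of 0.754. Leaving out 8 h replicate 1 gave 0.50, leaving out control replicate 2 gave 1.16 and leaving out control replicate 3 gave 3.24. The controls alone would not have passed Foxp3 through the filter on low counts, so its test results are a description. The exact 95% intervals, which cover counting error only, ran from 9.13 to 13.8 CPM in 8 h replicate 1 and from 2.45 to 4.76 CPM in control 3, and did not meet. Those of 8 h replicates 2 and 3, 1.401 to 3.047 CPM and 1.325 to 3.765 CPM, overlapped that of control 3.

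Ikzf2 (NM_011770, chromosome 1, 69531207 to 69687351) encodes Helios, an Ikaros-family protein found in many Treg cells. It had 0, 57 and 216 counts at 8 h, or 0, 4.29 and 31.3 CPM, and 1, 1 and 4 counts in controls, or 0.179, 0.199 and 0.365 CPM. Replicates 2 and 3 at 8 h were thus above every control, and 8 h replicate 1 held no count, which allows up to 0.352 CPM. The gene did not pass the filter on low counts and was not tested in the main analysis. Under the 6 alternatives that tested it, its log2 fold change lay between 5.28 and 6.04, with edgeR adjusted p-values between 0.208 and 0.544. The value of 6.04 came from leaving out 8 h replicate 1, the library with no count. With at most 4 counts in a control, Ikzf2 could pass a filter only through the 8 h libraries where it was high, so these estimates are a description. Foxp3 and Ikzf2 did not share their high library, since 8 h replicate 1 had the most Foxp3 and no Ikzf2.

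Ikzf4 (NM_011772, chromosome 10, 128630839 to 128669671) encodes Eos, a zinc finger relative of Helios that works with FOXP3 in gene repression in mouse Treg cells. Its counts were 62, 815 and 476 at 8 h, or 7.28, 61.4 and 69.0 CPM, and 226, 62 and 188 in controls, or 40.4, 12.3 and 17.2 CPM. The lowest library of all was 8 h replicate 1, and the other 8 h libraries lay above all controls. Means were 45.9 ± 33.6 CPM at 8 h and 23.3 ± 15.0 CPM in controls (SD, n = 3 each). Its log2 fold change was 0.98 (SE 1.73, edgeR adjusted p = 0.901), and 1.64 without control replicate 1 and 0.61 without 8 h replicate 3. Ikzf2 and Ikzf4 had their lowest 8 h value in the same library, replicate 1, and their highest in replicate 3, whereas Foxp3 was highest in replicate 1.

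Rora (NM_001289916, chromosome 9, 68653404 to 69388246), the orphan nuclear receptor of Th17 cells, was near the detection limit. It had 1, 17 and 6 counts at 8 h, or 0.117, 1.28 and 0.870 CPM, and 3, 1 and 15 counts in controls, or 0.536, 0.199 and 1.37 CPM. Both groups held a library with 1 count, their ranges nearly coincided, and the gene was not tested in the main analysis. The 4 alternatives that tested it gave log2 fold changes between -0.34 and 0.05. At this depth a difference was not detectable for Rora, whose untranslated region carries the seed match shown above.

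Ahr (NM_013464, chromosome 12, 35497979 to 35534989) encodes the aryl hydrocarbon receptor, a sensor of small ligands that is prominent in Th17 cells. Its counts were 42, 14 and 778 at 8 h, or 4.93, 1.05 and 113 CPM, and 12, 267 and 751 in controls, or 2.145, 53.1 and 68.5 CPM. High values came from 8 h replicate 3 and controls 2 and 3, at 53.1 CPM or more, and the rest were at or below 4.93 CPM, a split that crossed the groups. Means were 39.6 ± 63.4 CPM at 8 h and 41.2 ± 34.7 CPM in controls (SD, n = 3 each). The log2 fold change of Ahr, the tested factor with 2 seed matches, was -0.06, with an SE of 1.72 and an edgeR adjusted p of 0.997. Without 8 h replicate 3 it was -3.78, with an adjusted p of 0.643 where the 15 alternatives ranged from 0.643 to 0.9997, and it lay above 0, at 0.45, 0.50, 0.13 and 0.54, without 8 h replicates 1 or 2 or control replicates 2 or 3. Innate lymphoid and myeloid cells also use AHR. The 9 natural killer and innate lymphoid markers matched, of 10 listed, summed to 102 to 405 CPM at 8 h and 1063 to 4689 CPM in controls. These sums were mostly Gzma and Gzmb. The part of these markers in the Ahr values was not tested.

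Bcl6 (NM_009744, chromosome 16, 23965050 to 23988866), the repressor that defines Tfh cells, had the fewest counts of the 8. It had 4, 4 and 1 counts at 8 h and 1, 2 and 7 counts in controls, or 0.305 ± 0.162 CPM at 8 h and 0.405 ± 0.230 CPM in controls (SD, n = 3 each). No library exceeded 7 counts, the groups overlapped, and no difference was detectable at this depth. Without a filter on low counts edgeR gave a log2 fold change of -0.44, an SE of 0.74 and an adjusted p of 0.891. Germinal centre B cells also express Bcl6, and the 10 B cell markers summed to 61.2 to 160 CPM at 8 h and 88.3 to 152 CPM in controls, overlapping ranges.

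Ascl2 (NM_008554, chromosome 7, 142966822 to 142969264), the basic helix-loop-helix factor of early Tfh cells, was the only factor of the 8 whose groups did not overlap. It had 46, 142 and 134 counts in 8 h replicates 1 to 3, or 5.40, 10.7 and 19.4 CPM, and 1, 4 and 5 counts in controls, or 0.179, 0.795 and 0.456 CPM. The lowest 8 h library thus stood above the highest control, and their 95% counting intervals, 3.95 to 7.20 CPM and 0.217 to 2.04 CPM, did not meet. Groups that do not overlap in this direction were found for 5.72% of all tested genes, and for 1 of the 5 tested factors. Means were 11.8 ± 7.08 CPM at 8 h and 0.477 ± 0.309 CPM in controls (SD, n = 3 each). Its log2 fold change was 4.60 with an SE of 1.86, higher in 3 of 3 libraries at 8 h, with an unadjusted p of 0.0135 and an edgeR adjusted p of 0.496, so Ascl2 did not pass the test over all genes. DESeq2 called it (adjusted p = 0.00522), and over the 15 alternatives the adjusted p ranged from 0.00522 to 0.998. Leaving out each library gave log2 fold changes between 4.08 and 5.11, with an unadjusted p of 0.071 without control replicate 1, 0.055 without control replicate 3 and at most 0.0384 without any other library. The groups of all 6 libraries stayed apart under TMM, RLE and upper-quartile scaling and with no scaling factor. The TMM factors ran only from 0.8775 to 1.126, so scaling could hardly have joined the groups. With at most 5 counts in a control, Ascl2 passed the filter only through the 8 h libraries, where it was high. Its test results, intervals and separation are therefore a description. The same libraries differed in other ways. The 6 markers of mast cells and basophils summed to 8.69 to 17.8 CPM at 8 h and 19.3 to 27.0 CPM in controls. The 9 of erythroid cells and platelets summed to 10.1 to 73.1 CPM at 8 h and 76.0 to 217 CPM in controls. The natural killer sums, mostly Gzma and Gzmb, did not overlap either. The part of these markers in the Ascl2 difference was not tested.

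**Figure D2:**
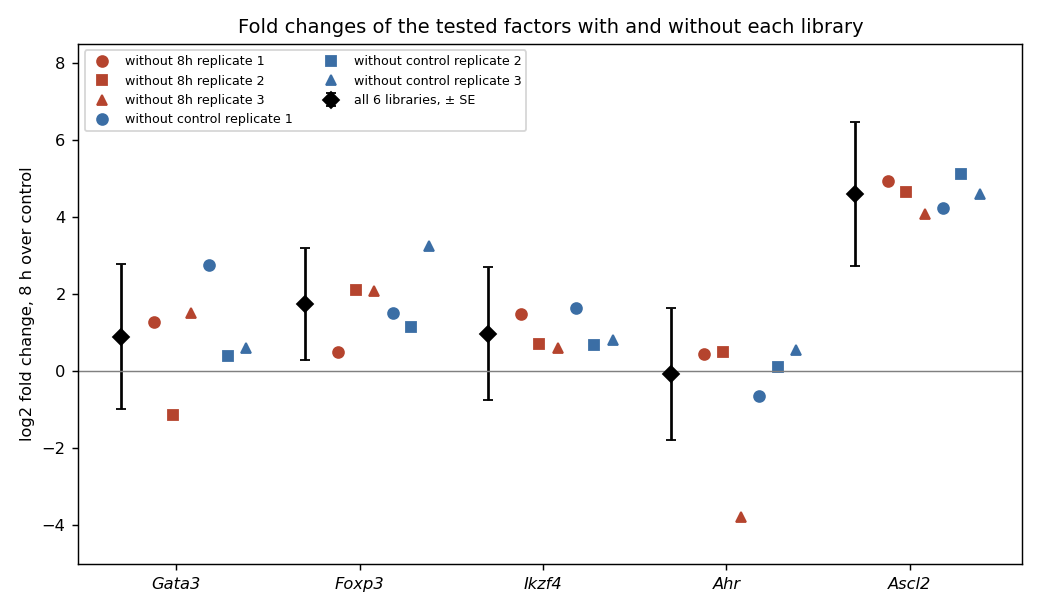
Log2 fold change of 8 h over control for the 5 tested factors, from all 6 libraries (black diamonds, bars ± SE) and without each library in turn (red for 8 h libraries left out, blue for controls, symbol by replicate number). Ascl2 stays between 4.08 and 5.11, Gata3 spans -1.14 to 2.76, and Ahr reaches -3.78 without 8 h replicate 3.

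Levels of different genes were compared per kilobase of the transcript paired with each accession, in CPM per kilobase. Gata3 was the highest of the 8 factors in 4 libraries, at 25.6 and 145 in 8 h replicates 1 and 2 and at 75.3 and 14.8 in controls 1 and 3. Ahr was the highest in the other 2, at 20.3 in 8 h replicate 3 and 9.57 in control 2. These are the libraries in which Gata3 was lowest within its group. Ikzf4 ranked second in 4 of the 6 libraries, and Ascl2 ranked second in 8 h replicate 1, at 3.36. Bcl6, at 0.0411 to 0.133 at 8 h and 0.0507 to 0.181 in controls, did not exceed 0.2 CPM per kilobase in any library. Neighbouring ranks such as Gata3 and Ahr in control 3, at 14.8 and 12.4, lie far within the spread between libraries of a group. Ranks between genes also assume that each row is an ordinary gene count, which the Actb counts leave uncertain.

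The genes whose profile over the 6 libraries was most like each tested factor were found by the root mean square distance between log2 CPM values, each centred on its own mean. The closest to Gata3 were Spry1, Musk and Pycard, at distances of 0.516, 0.540 and 0.567, where the median distance of a tested gene to Gata3 was 2.81. Pycard, for example, had 941, 20710 and 102 counts at 8 h and 5206, 141 and 1876 in controls, and like Gata3 was highest in 8 h replicate 2 and lowest in 8 h replicate 3. For Foxp3 the closest were Rpl39, Nufip1 and Slc8b1 (0.524 to 0.586), and for Ikzf4 they were Casc3, Cd276 and Btf3 (0.233 to 0.257). For Ahr they included Osr1 and Ppp2cb (0.528 and 0.580), with Ppp2cb at 249, 94 and 7309 counts at 8 h and 45, 1573 and 9198 in controls. For Ascl2 they were Slc25a38, Rtl8c and Timm50 (0.368 to 0.506), all with higher values in every 8 h library. No gene of the lineage lists described next was among the 15 nearest genes, 3 for each factor. Each list held at most 23 of the 8308 tested genes, so little can be read from that absence. Distances over 6 libraries, searched through all tested genes, describe these libraries and carry no test.

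**Figure D3:**
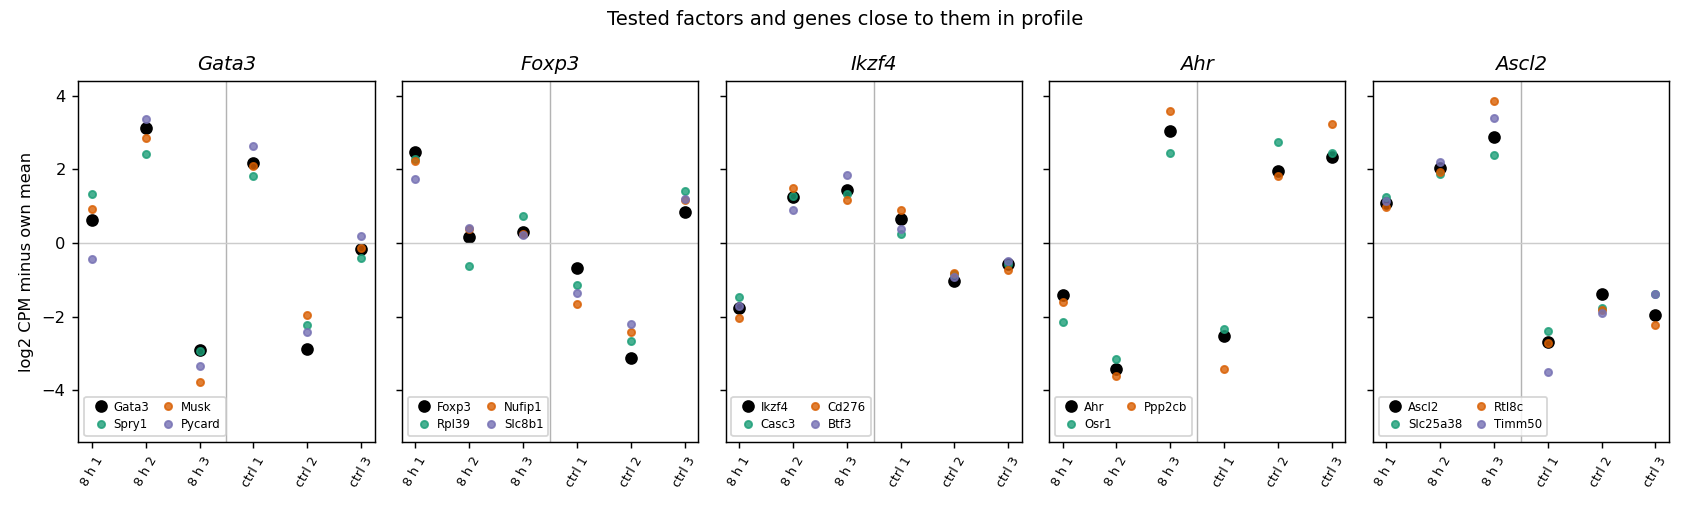
Log2 CPM minus each gene's own mean in the 6 libraries, 8 h libraries left and controls right of the line, for the 5 tested factors (black) and the genes named as closest in profile (coloured). The groups overlap for Gata3, Foxp3, Ikzf4 and Ahr, and for Ascl2 and its neighbours the 8 h libraries lie above the controls.

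Partners, receptors and products of each fate were read from 6 lists, in which edgeR called 0 genes at an adjusted p of 0.05. At an unadjusted p under 0.05 edgeR gave 3 of 22 tested Th2 genes, 1 of 23 Treg, 3 of 11 Th17, 0 of 7 AHR, 1 of 22 Tfh and 1 of 4 BCL6 corepressor genes, where 8.53% of all tested genes reached that level. DESeq2 called equal numbers in each list, where it called 4.80% of all tested genes. The lists share genes, and Il21 is counted under both Th17 and Tfh. These counts include genes that passed the filter on low counts only through the group where they were high (Areg, Il1rl1, Itgae, Il1r1 and Il21). Of 27 Th2 genes, all matched, 22 were tested, with 9 higher and 13 lower estimates at 8 h and a median log2 fold change of -0.36. The cytokine genes that GATA3 controls overlapped between groups, Il4 at 32, 1782 and 2196 counts at 8 h and 33, 323 and 3568 in controls, and Il5 at 28, 29 and 36 counts at 8 h and 8, 14 and 59 in controls. Neither followed Gata3 from library to library, since 8 h replicate 3 had the least Gata3 and the most Il4 and Il5 of its group. Il13 had 213, 25 and 38 counts at 8 h and 57, 516 and 24 in controls. These 3 cytokines were chosen after their values were seen. Groups did not overlap for 2 Th2 genes higher and 1 lower at 8 h, where 5.72% and 5.08% of all tested genes did so. Il1rl1, the IL-33 receptor of Th2 and Treg cells, had 38, 339 and 177 counts at 8 h and 5, 7 and 14 in controls (log2 fold change 3.95 ± 1.87 SE, edgeR adjusted p = 0.544). Il1rl1 passed the filter on low counts only through the 8 h libraries, where it was high. Its estimate and separation are therefore a description. Zfpm1, which encodes FOG-1, a binding partner of GATA factors, had 407, 6399 and 1749 counts at 8 h and 23, 213 and 80 in controls (3.87 ± 2.09 SE, adjusted p = 0.613). Nfil3, a basic leucine zipper factor that regulates helper cell cytokine genes, had 674, 213 and 71 counts at 8 h and 24534, 961 and 54296 in controls (-6.50 ± 2.83 SE, adjusted p = 0.536).

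Of 34 Treg genes, 29 matched and 23 were tested, with 8 higher and 15 lower estimates and a median log2 fold change of -1.07. Of these 23, groups did not overlap for 1 gene higher and 2 lower at 8 h, where 5.72% and 5.08% of all tested genes did so. Itgae, the integrin chain CD103 of tissue-homing Treg cells, had 5, 9 and 10 counts at 8 h and 90, 121 and 43 in controls (log2 fold change -4.01 ± 1.84 SE, edgeR adjusted p = 0.538). Entpd1, the ectoenzyme CD39, had 18, 11 and 6 counts at 8 h and 18, 35 and 63 in controls (-2.05 ± 1.46 SE, edgeR adjusted p = 0.703). Its groups parted only through library size, since 8 h replicate 1 and control 1 had equal counts, at 2.11 and 3.22 CPM. Itgae and Entpd1 passed the filter on low counts only through the controls, where they were high. Their estimates and separation are therefore a description. Nr4a1, a nuclear receptor induced by antigen, had 510, 5343 and 1331 counts at 8 h and 89, 282 and 71 in controls (3.06 ± 1.99 SE, edgeR adjusted p = 0.670). Il2ra, the high-affinity IL-2 receptor chain that Treg cells carry, had 91, 27 and 11 counts at 8 h and 13, 25 and 16 in controls, and was highest in 8 h replicate 1, as Foxp3 was. Ctla4, an inhibitory receptor under FOXP3 control, had 2789, 7809 and 10688 counts at 8 h and 706, 1853 and 53506 in controls. These 2 genes, picked with their values in view, overlapped between groups.

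Of 25 Th17 genes, 23 matched and 11 were tested, with 2 higher and 9 lower estimates and a median log2 fold change of -1.43. Groups did not overlap for 2 of the 11 genes, both lower at 8 h, where 5.08% of all tested genes did so. Il1r1, an IL-1 receptor of Th17 cells, had 3, 0 and 0 counts at 8 h and 10, 84 and 772 in controls (log2 fold change -7.84 ± 2.32 SE, edgeR adjusted p = 0.342). With at most 3 counts at 8 h, Il1r1 passed the filter only through the controls, where it was high. Its estimate and separation are therefore a description. Batf, an AP-1 factor required for Th17 cells, had 104, 203 and 512 counts at 8 h and 1752, 7423 and 19326 in controls (-5.13 ± 2.50 SE, adjusted p = 0.553). Il22, a cytokine that AHR promotes, had 0, 49 and 2 counts at 8 h and 3, 6 and 13 in controls, too few to be tested. Il22 was singled out with its values in view.

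Of 15 partners and targets of AHR, all matched and 7 were tested, with 4 higher and 3 lower estimates and a median log2 fold change of 0.69. Groups did not overlap for 0 of the 7, where 10.8% of all tested genes did so in either direction. The inducible targets differed in how their libraries ranked beside Ahr. Cyp1a1, the classical target enzyme, had 334, 33 and 0 counts at 8 h and 1, 20 and 9 in controls, with 0, which allows up to 0.435 CPM, in 8 h replicate 3, where Ahr was highest. Ahrr, the repressor of the receptor, had 25, 2247 and 43 counts at 8 h and 8, 281 and 3 in controls, and was highest in 8 h replicate 2, where Ahr was lowest. Nqo1, a detoxifying enzyme that AHR can induce, had 5, 1 and 70 counts at 8 h and 4, 7 and 98 in controls, and within each group its CPM ranked the libraries as Ahr did. Cyp1a1, Ahrr and Nqo1 were singled out with their values in view.

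Of 34 Tfh genes, 32 matched and 22 were tested, with 14 higher and 8 lower estimates and a median log2 fold change of 0.36. Of these 22, groups did not overlap for 3 genes higher and 1 lower at 8 h, where 5.72% and 5.08% of all tested genes did so. Slamf6 and Pou2f2, among the higher genes, passed the filter on low counts only through the 8 h libraries, where they were high. Their separation is therefore a description. Cd200, a surface glycoprotein of Tfh cells, had 3126, 16819 and 6951 counts at 8 h and 374, 71 and 3444 in controls (2.74 ± 2.21 SE, edgeR adjusted p = 0.745). Prdm1, which encodes BLIMP-1, the factor that opposes BCL6, had 89, 21 and 30 counts at 8 h and 321, 106 and 311 in controls (-2.70 ± 1.80 SE, adjusted p = 0.677). Cxcr5, the receptor that ASCL2 induces in mouse T cells, had 17, 22 and 11 counts at 8 h and 130, 8 and 52 in controls, with an estimate of -2.48 on the log2 scale (SE 1.66, edgeR adjusted p = 0.678). Its estimate had the opposite sign to that of Ascl2, and its groups overlapped through control 2. Il21, the Tfh cytokine, had 11, 17 and 70 counts at 8 h and 30, 1230 and 300 in controls (-4.45 ± 1.99 SE, adjusted p = 0.538). Cxcr5 and Il21 were singled out with their values in view. Il21 passed the filter on low counts only through the controls, where it was high, so its estimate is a description. Of 11 corepressor partners of BCL6, 9 matched and 4 were tested, with 1 higher and 3 lower estimates and a median of -0.75. Of these 4, groups did not overlap for 1 gene higher and 1 lower at 8 h, where 5.72% and 5.08% of all tested genes did so. Hdac3, a histone deacetylase recruited by BCL6 corepressors, had 1084, 1602 and 1586 counts at 8 h and 60, 35 and 34 in controls (4.52 ± 2.07 SE, adjusted p = 0.538), and Hdac5, a class II deacetylase, had 75, 95 and 44 counts at 8 h and 683, 183 and 187 in controls (-2.97 ± 1.84 SE, adjusted p = 0.650).

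**Figure D4:**
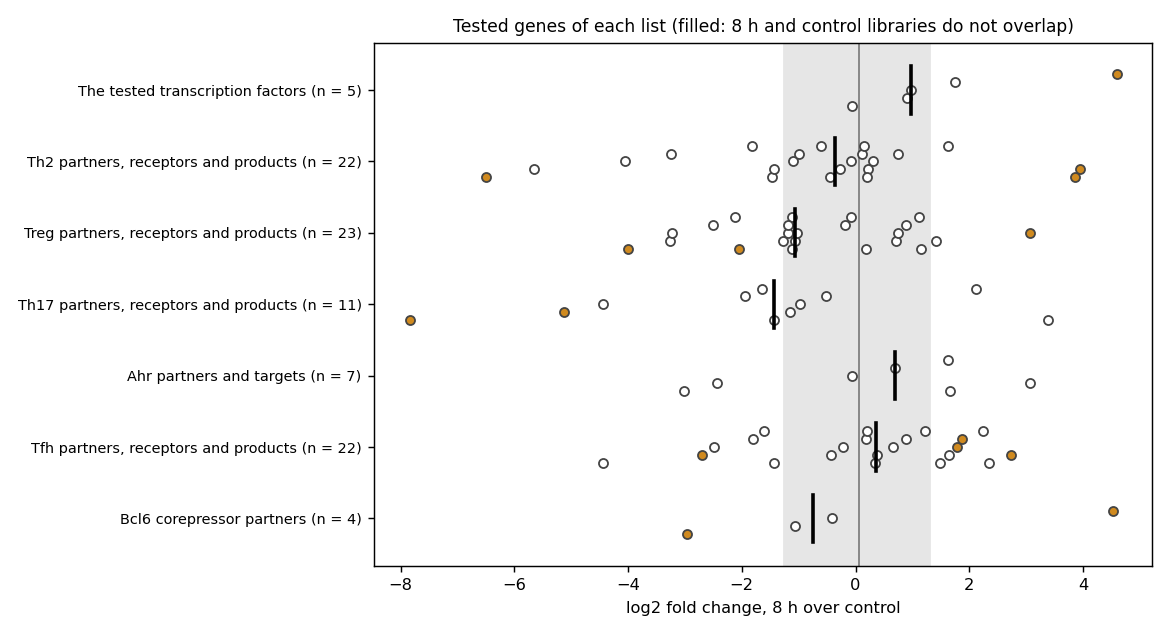
Log2 fold change of 8 h over control for the tested genes of each list (points, filled where the 8 h and control libraries do not overlap) with the list's median (black bar); the grey band spans the quartiles of all 8308 tested genes, -1.26 to 1.32, around their median of 0.06. List medians run from -1.43 (Th17) to 0.69 (Ahr partners) and 0.98 (the transcription factors), and 0 of the genes shown passed the test.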

How the data were processed

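RNA of mouse CD4+ T cells was sequenced as single reads from TruSeq libraries, per the series' design text. The counts, whole numbers per RefSeq accession in the 6 libraries, were used as the authors deposited them. The submitters' processing notes name Bowtie, R 3.4.2 and GRCm38 without giving their roles. The counting program, its use of strand, its handling of reads matching several places and any filter were not given in the sources used here. So counts of overlapping genes or genes with close copies are uncertain. Columns were matched by title, and 0 lay outside the series. The RefSeq gene table of GRCm38.p6 named 12827 accessions, GENCODE M21 a further 47, and 303 stayed unnamed. Transcript lengths and 3′ untranslated regions came from GENCODE M21.

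The comparison of 8 h with control libraries used edgeR 4.0.16 under R 4.3.3 (TMM factors, filterByExpr by group, robust quasi-likelihood F test with the group as the only term, two-sided, Benjamini-Hochberg adjustment over all 8308 tested rows, threshold 0.05), tested on simulated data. Standard errors were taken by dividing the size of each log2 fold change by the root of its F. CPM used TMM-scaled library sizes, and log2 CPM a prior count of 2. Intervals are Clopper-Pearson at 95%, and a count of 0 was given the level of 3 counts. Intervals and these levels cover counting error only, since reads carried no molecular identifiers. Alternatives were DESeq2 1.42.0, voom of limma 3.58.1, other scalings, filters and forms of the fit, a replicate block, accessions summed by symbol and each library left out. Genes named were the 8 factors, Cd3e, Cd4, Cd5, Cd8a and Lyz2, up to 3 genes per list with the largest changes among genes without overlap between groups and with a mean of at least 5 CPM in the higher one, and the 3 nearest profiles. Results of some genes these rules name are not reported here. Others were picked with their values in view. The members and lists were chosen with earlier results of these data known.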

Additional observations from a re-analysis of the deposited data

How the results depend on the processing

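The number of genes called between 8 h and control, and of the 8 factors called, was 0 in edgeR and stayed 0 with the replicate block, under upper-quartile and RLE scaling, in limma-voom, the newer quasi-likelihood form, both other filters, summing by symbol and without each replicate (0 to 0). DESeq2 called 399 genes and 1 factor, Ascl2, and gave no adjusted p for 1720 genes. Deviations of same-numbered libraries from their group means correlated at -0.0107, 0.0151 and -0.0039, so the numbers were not taken to pair the samples. With the replicate block Gata3 turned to -0.56. Leaving out each replicate gave Gata3 -1.14 (without 8 h replicate 2) to 2.76 (without control replicate 1). For Ahr that range was -3.78 (without 8 h replicate 3) to 0.54: it turned to 0.45 and 0.50 without 8 h replicates 1 and 2 and to 0.13 and 0.54 without control replicates 2 and 3. The cause was not tested. The other 68 of 74 alternative fold changes of the 5 tested factors kept their sign. Foxp3 fell below the filter at a mean of 5 CPM. No symbol had more than 1 row, so summing changed nothing. Low counts limit Rora and Bcl6.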
